A study of Mus musculus with 6 samples.

Results

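The 10 genes described here are regulators of melanocytes and genes of pigment synthesis. They are the transcription factor genes Mitf, Pax3, Sox10 and Tfap2a, the receptor genes Mc1r and Ednrb, the pigment enzyme genes Tyr and Dct, and the melanosome genes Pmel and Slc24a5. They were taken by gene name from a table of 34745 genes, and all 10 names were found there once. RNA came from 6 tumours grown in the right flank of C57BL/6J mice that had received a subcutaneous injection of cells labelled B16F10, a cell line from a mouse melanoma. The mice were on a normal diet (ND, 3 tumours) or a high cholesterol diet (HCD, 3 tumours), and every tumour of both diets came from the same labelled line with no engineered allele named in the labels. The sources used here do not give the composition and length of the diets or the age and sex of the mice. The labels number the tumours 1 to 3 within a diet without stating that each came from its own animal, so every p-value measures the spread between these samples. Library totals ran from 20351637 to 26228074 counts.

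Melanocytes arise from the neural crest. Sox10 and Pax3 act on the Mitf gene, and the Mitf protein, a factor that binds the E-box family of DNA motifs, drives the enzymes that make melanin inside melanosomes. Mc1r, the melanocortin receptor, raises cyclic AMP and with it Mitf, and Ednrb, an endothelin receptor, serves the survival and migration of melanoblasts. Mitf, Pax3, Tfap2a and Ednrb are also used by other cell types, whereas Tyr and Dct are classical markers of pigment cells.

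The promoters of Tyr, Dct, Mc1r and Slc24a5 hold the letters of the M-box, the motif through which Mitf is known to act. They are shown because these genes had 0 counts or few while Mitf was counted in every library. The sequences are the 250 bases before the annotated start of transcription, from RefSeq (build GRCm38.p6), 5' to 3' along the gene. Capitals mark TCATGTG or, where the motif lies on the other strand, its reverse complement CACATGA. The windows are Tyr (minus strand, chr7:87493513-87493762), Dct (minus strand, chr14:118052247-118052496), Mc1r (plus strand, chr8:123406832-123407081) and Slc24a5 (plus strand, chr2:125067877-125068126).
Tyr: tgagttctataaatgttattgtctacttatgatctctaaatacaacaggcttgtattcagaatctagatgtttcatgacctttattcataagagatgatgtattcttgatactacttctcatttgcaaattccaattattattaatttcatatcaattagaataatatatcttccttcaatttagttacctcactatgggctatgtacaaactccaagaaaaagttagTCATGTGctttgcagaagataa
Dct: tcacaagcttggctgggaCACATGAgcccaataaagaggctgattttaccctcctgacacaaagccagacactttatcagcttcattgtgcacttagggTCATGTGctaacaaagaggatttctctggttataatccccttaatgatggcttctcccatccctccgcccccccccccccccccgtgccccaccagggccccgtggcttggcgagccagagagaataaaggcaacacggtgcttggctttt
Mc1r: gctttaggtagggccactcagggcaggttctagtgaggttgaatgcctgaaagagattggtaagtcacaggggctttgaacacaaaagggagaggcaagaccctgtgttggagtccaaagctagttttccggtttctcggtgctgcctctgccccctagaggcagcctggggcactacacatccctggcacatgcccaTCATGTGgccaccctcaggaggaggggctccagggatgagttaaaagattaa
Slc24a5: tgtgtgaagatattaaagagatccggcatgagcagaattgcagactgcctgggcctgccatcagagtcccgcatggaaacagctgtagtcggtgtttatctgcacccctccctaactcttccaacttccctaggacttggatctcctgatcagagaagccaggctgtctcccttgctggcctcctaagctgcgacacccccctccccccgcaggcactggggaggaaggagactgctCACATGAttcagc

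The sequence table held 7 of the 10 genes (Mitf, Tfap2a, Mc1r, Ednrb, Tyr, Dct and Slc24a5) in 10 windows of 300 bases, which also take in the 50 bases after the start. Pax3, Sox10 and Pmel had no entry. TCATGTG was searched on both strands, and 4 of the 7 genes held it: Tyr 22 bases before the start, Mc1r 52 before, Slc24a5 13 before, and Dct at 151 and 232 before. The related pigment enzyme gene Tyrp1 held it 47 bases before its start. Over all 32851 windows of the same length, 3.77% held TCATGTG. The other E-box searched, with the letters CACGTG, reads the same on both strands and differs from the CATGTG inside the M-box, so a match to one is never a match to the other. It was in none of these windows and in 7.15% of all windows. No TCATGTG was found in the 3 windows of Mitf, the 2 of Tfap2a or the 1 of Ednrb. A match says only that the letters are there. Of the 4 genes with a match, 3 had 0 counts in all 6 libraries and Slc24a5 was counted in every one.

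**Figure D1:**
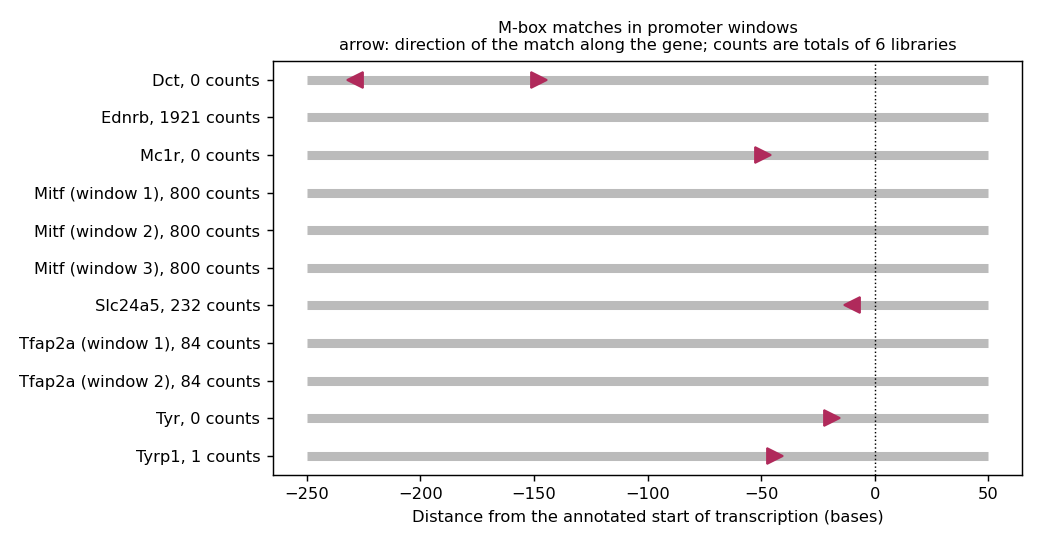
Positions of TCATGTG in the promoter windows of 7 of the 10 genes and of Tyrp1, in bases from the annotated start, with each gene's total count over the 6 libraries. Tyr, Dct and Mc1r hold the motif and have 0 counts, Tyrp1 holds it and has 1 count, and Mitf with 800 counts holds none.

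Both pigment enzyme genes and the melanocortin receptor gene were not counted in any tumour. Tyr (ENSMUSG00000004651, GRCm38 chromosome 7, 87424771 to 87493512) encodes tyrosinase, which starts melanin synthesis. Dct (ENSMUSG00000022129, chromosome 14, 118012790 to 118052244) encodes dopachrome tautomerase, which acts after it. Mc1r (ENSMUSG00000074037, chromosome 8, 123407107 to 123410744) encodes the receptor for melanocyte-stimulating hormone. Each of the 3 had 0 counts in ND 1, ND 2, ND 3, HCD 1, HCD 2 and HCD 3. A true level of up to 3 counts in the 131411022 counts of all libraries together, or 0.0228 CPM (counts scaled by the library total), would still be compatible with 0 by counting error alone. Of the 10 genes, 3 had 0 counts in all 6 libraries and 6 had counts in all 6. Among the 21556 protein-coding genes of the table the shares were 17.2% with 0 counts throughout and 68.5% with counts in all 6 libraries, and among all 34745 genes 28.6% and 50.9%. The exons of Mc1r overlap those of Gm38092 by 653 bases on the other strand, and Gm38092 also had 0 counts.

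The label of the tumours as melanoma was set against lists of markers. Of 12 further melanosome genes, 2 had 0 counts in all libraries (Mlana and Oca2) and Tyrp1 had 1 count in total. Among protein-coding genes 17.2% had 0 counts throughout, so the count at 0 is near the background. In the same list 5 genes were counted in all libraries, and Gpnmb averaged 12.0 FPKM. All 12 hepatocyte markers looked up (a list chosen with earlier results of these data known) were counted in all 6 libraries. Summed, they reached 8586 to 10734 CPM in the ND libraries and 8489 to 10953 CPM in the HCD libraries. The pigment cell genes Tyr, Dct, Mlana, Oca2 and Tyrp1 were at or near 0 in tumours labelled B16F10, in both diets. Hepatocyte genes were abundant in all of these tumours. Whether the label describes the tissue that was sequenced could not be settled from these values, and every level given here is that of tumours labelled B16F10. In tumour tissue, fewer cells of a type and less RNA per cell cannot be told apart.

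Levels of different genes are set side by side only on the FPKM scale, which divides by gene length. Ednrb was the highest of the 10 genes, with a mean level of 2.06 ± 0.845 FPKM (SD, n = 6), and in every library it lay above Slc24a5. Slc24a5 followed at 0.667 ± 0.0761 FPKM and Mitf at 0.603 ± 0.227 FPKM. These neighbours overlapped, Slc24a5 being the higher in 4 of 6 libraries. Pmel, at 0.316 ± 0.0913 FPKM, lay below Mitf and above Pax3 in 6 of 6 libraries, although the ranges over all libraries overlapped. Pax3 at 0.218 ± 0.0202 FPKM and Tfap2a at 0.196 ± 0.0595 FPKM could not be ordered, since Pax3 was higher in 3 of 6 libraries. Sox10 averaged 0.0447 ± 0.0715 FPKM. Even Ednrb lay above no more than 35.9% of the 15539 tested genes in mean FPKM, Slc24a5 above 18.8%, Mitf above 17.7% and Tfap2a above 5.75%. The length behind the authors' FPKM values was 10143 bases for Mitf and 8623 for Pax3, where the exons of the GENCODE M21 annotation join to 6196 and 6187 bases, so the order of close neighbours depends on the length used.

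**Figure D2:**
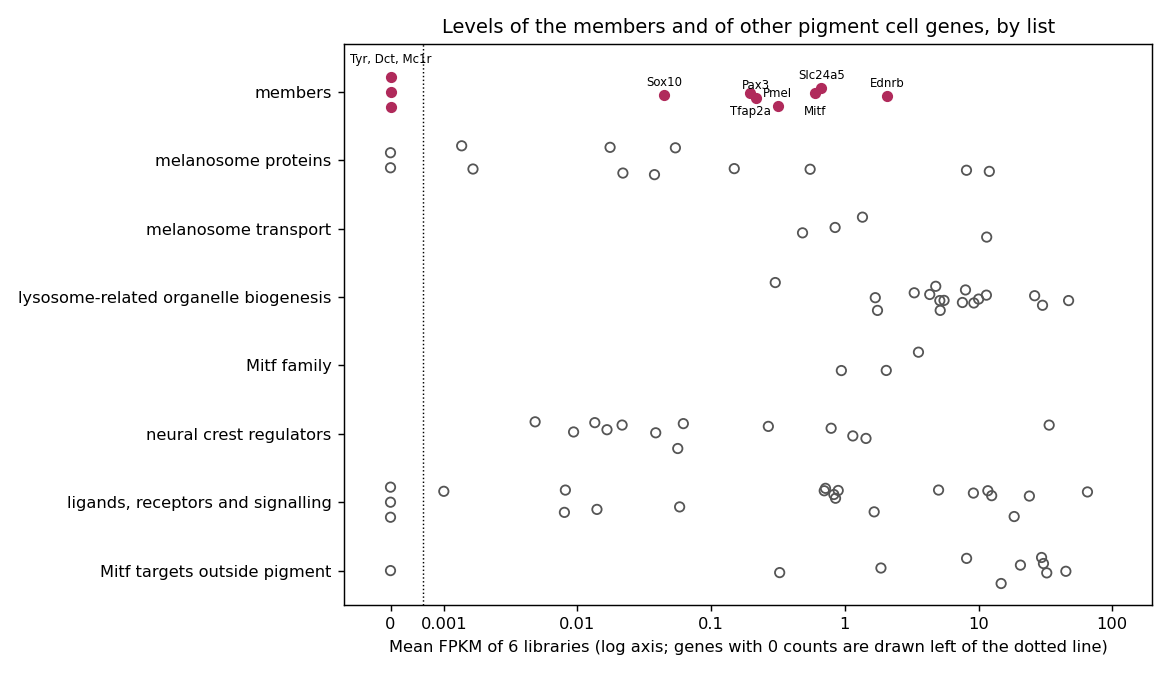
Mean FPKM over the 6 libraries on a log axis for the 10 genes (filled) and for 80 other pigment cell genes by list (open). The 3 genes without counts lie left of the dotted line, Ednrb is highest at 2.06 FPKM, and organelle biogenesis genes range up to 47.2 FPKM.

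Mitf (ENSMUSG00000035158, chromosome 6, 97807052 to 98021349), the central factor of the melanocyte lineage, was counted in all tumours. Its level was 3.53, 6.62 and 5.97 CPM in ND 1 to ND 3 and 5.54, 10.1 and 4.82 CPM in HCD 1 to HCD 3. HCD 2 was the highest and ND 1 the lowest, and the diets overlapped. The ND mean was 5.37 ± 1.63 CPM and the HCD mean 6.82 ± 2.86 CPM (SD, n = 3 each). The log2 fold change of HCD over ND was 0.34 ± 0.36 SE, with a 95% interval of -0.51 to 1.19 and an edgeR quasi-likelihood adjusted p of 0.869. Without HCD 2 it was -0.047. The gene has several promoters, and counts per gene do not separate its transcripts.

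Mitf is also expressed by macrophages and mast cells, so their markers are given beside it. Macrophage markers (10 of 10 counted in all libraries) summed to 491, 1006 and 872 CPM in ND 1 to ND 3 and to 950, 1597 and 732 CPM in HCD 1 to HCD 3. Mast cell markers (9 of 9 counted in all libraries) summed to 33.7, 91.7 and 92.7 CPM in the ND libraries and to 63.7, 191 and 86.4 CPM in the HCD libraries. HCD 2 was the highest and ND 1 the lowest library for Mitf and for both marker sums. Not every marker followed its sum. The macrophage marker Cd14 was highest in ND 1 (28.6 CPM) and the mast cell marker Hdc in ND 3 (14.7 CPM). The part of these cell types in the level of Mitf was not tested.

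Pax3 (ENSMUSG00000004872, chromosome 1, 78101267 to 78197134), a paired-box factor of neural crest and of muscle precursors, was low and even. Its level was 2.10, 1.74 and 1.65 CPM in ND 1 to ND 3 and 1.83, 2.08 and 1.90 CPM in HCD 1 to HCD 3, from 34 to 47 counts a library. The highest library was 1.27 times the lowest. Pax3 had a log2 fold change of 0.08 ± 0.24 SE (95% interval -0.48 to 0.64, edgeR adjusted p = 0.943). Muscle and myoblast markers (7 genes, 4 counted in all libraries) summed to between 11.5 and 610 CPM in the ND libraries. In the HCD libraries the sum was between 14.1 and 960 CPM, an 83.3-fold range over both diets. Pax3 stayed between 1.65 and 2.10 CPM. In HCD 1, where the sum was highest, Acta1, Des and Ckm had 631, 210 and 113 CPM. In ND 1, where it was lowest, they had 4.42, 6.74 and 0.134 CPM. The range thus mainly follows these genes. Pax7, the closest relative of Pax3, had 8 counts in 3 libraries. The part of muscle precursors in the Pax3 level was not tested.

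Sox10 (ENSMUSG00000033006, chromosome 15, 79154908 to 79165240), which marks the neural crest, melanocytes and Schwann cells, was counted in 2 of 6 libraries. It had 0 counts in ND 1, ND 2, ND 3 and HCD 1, 9 counts in HCD 2 (0.435 CPM) and 6 counts in HCD 3 (0.292 CPM). Pooled over HCD the 15 counts gave 0.242 CPM (95% Poisson interval 0.135 to 0.399, counting error only). Pooled over ND, the limit that a count of 0 allows was 0.0432 CPM. HCD 1 was also at 0, so the diets overlapped. An exact two-sided permutation test gave p = 0.4. That is the smallest p it can give when only 2 of 6 libraries have counts, so it could not show a difference. The gene did not pass the filter on low counts. In the edgeR fit without that filter its p was 0.0236 and its adjusted p 0.823 over 24803 genes. Schwann cell markers (8 genes, 7 counted in all libraries) summed to 8.71, 12.2 and 11.1 CPM in ND and to 15.7, 21.4 and 8.38 CPM in HCD 1 to HCD 3. HCD 2 was the highest library for the sum of these markers, while HCD 3, the other library with Sox10, was the lowest. Single markers differed. Cdh19 was highest in HCD 2 (6.04 CPM) and next in HCD 3 (0.536 CPM). Mbp was lowest in HCD 3 (3.70 CPM), and Gfra3 had 0 counts in HCD 2 and HCD 3. The part of Schwann cells in the Sox10 counts was not tested.

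Tfap2a (ENSMUSG00000021359, chromosome 13, 40715302 to 40738376) encodes the AP-2 alpha factor of neural crest and surface ectoderm. It had 0.893, 0.605 and 0.631 CPM in ND 1 to ND 3 and 0.723, 0.290 and 0.682 CPM in HCD 1 to HCD 3, from 6 to 20 counts a library. HCD 2 was the lowest and the diets overlapped. The log2 fold change was -0.32 ± 0.43 SE (95% interval -1.34 to 0.70, edgeR adjusted p = 0.891), and -0.0077 without HCD 2. Its exons overlap those of Gm26688 by 380 bases on the other strand, and Gm26688 had 2 counts in total. Keratinocyte markers (8 genes, 4 counted in all libraries) summed to between 5.82 and 7.79 CPM in the ND libraries and to 6.65, 6.47 and 30.3 CPM in HCD 1 to HCD 3. Tfap2a was not highest in HCD 3, where the sum of these markers was. That sum was led by Krt14 (13.4 CPM) and Krt5 (11.8 CPM), and the part of keratinocytes in the Tfap2a level was not tested.

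Ednrb (ENSMUSG00000022122, chromosome 14, 103814625 to 103844402), the endothelin receptor of melanoblasts and also of endothelium and pericytes, had 13.6, 13.0 and 9.12 CPM in ND 1 to ND 3. In HCD 1 to HCD 3 it had 16.6, 25.4 and 10.4 CPM. HCD 2 and HCD 1 were the highest libraries, and HCD 3 lay below ND 1 and ND 2, so the diets overlapped. The means were 11.9 ± 2.43 and 17.5 ± 7.53 CPM (SD, n = 3 each), with a log2 fold change of 0.55 ± 0.32 SE (95% interval -0.21 to 1.32, edgeR adjusted p = 0.839). Without HCD 2 the log2 fold change was 0.19, the lowest of the 6 fits with 1 library left out. Endothelial markers (10 of 10 counted in all libraries) summed to between 208 and 264 CPM in ND, and to 263, 471 and 233 CPM in HCD 1 to HCD 3. HCD 2 was thus the highest library for Ednrb and for the endothelial markers, whose part in the Ednrb level was not tested. Fibroblast and pericyte markers summed to between 2389 and 3351 CPM, with ND 1 the highest. Not every marker followed this sum. Dcn and Cspg4 were highest in ND 1, but Col1a1 and Col1a2 in HCD 2 (638 and 715 CPM). In ND 1 Dcn had 1946 CPM and Cspg4 16.8 CPM, so the sum does not separate pericytes from fibroblasts. The part of pericytes in the Ednrb level was not tested.

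**Figure D3:**
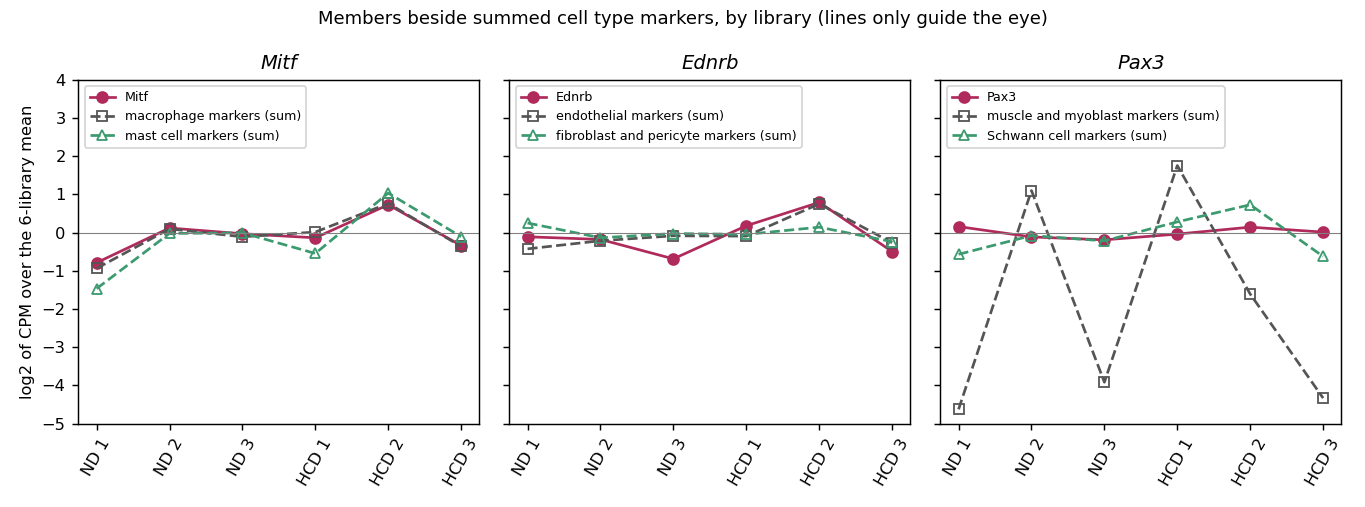
Level of Mitf, Ednrb and Pax3 in each library beside summed cell type markers, as log2 of CPM over the mean of the 6 libraries. HCD 2 is highest for Mitf and Ednrb and for the summed macrophage, mast cell and endothelial markers. Pax3 varies little while the muscle sum, in which Acta1 has the highest mean FPKM, ranges 83.3-fold.

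Pmel (ENSMUSG00000025359, chromosome 10, 128704195 to 128720238) encodes the fibril protein of the melanosome. It had 0.670, 0.794 and 0.437 CPM in ND 1 to ND 3 and 0.964, 0.531 and 0.633 CPM in HCD 1 to HCD 3, from 9 to 21 counts a library. The diets overlapped, with the highest library in HCD and the lowest in ND. The log2 fold change was 0.15 ± 0.39 SE (95% interval -0.77 to 1.08, edgeR adjusted p = 0.938), and it changed sign when ND 3 (-0.047) or HCD 1 (-0.13) was left out. Its exons overlap those of Cdk2 by 34 bases and of Dgka by 105 bases, both on the other strand, and these neighbours had 9480 and 7176 counts in total against 89 for Pmel.

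Slc24a5 (ENSMUSG00000035183, chromosome 2, 125068124 to 125088677) encodes a potassium-dependent sodium and calcium exchanger needed for pigmentation. Its level was 1.61, 1.66 and 2.09 CPM in ND 1 to ND 3 and 1.93, 1.64 and 1.70 CPM in HCD 1 to HCD 3, which is as even as Pax3, the highest library being 1.30 times the lowest. Slc24a5 had a log2 fold change of -0.021 ± 0.24 SE (95% interval -0.60 to 0.56, edgeR adjusted p = 0.986). Of 2330 exon bases, 921 overlap exons of Myef2 on the other strand, a gene with 14084 counts against 232 for Slc24a5. Because the strand setting of the counting is not given in the sources used here, reads of Pmel and Slc24a5 could not be told apart from reads of these neighbours where exons overlap, and both levels are uncertain for that reason.

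**Figure D4:**
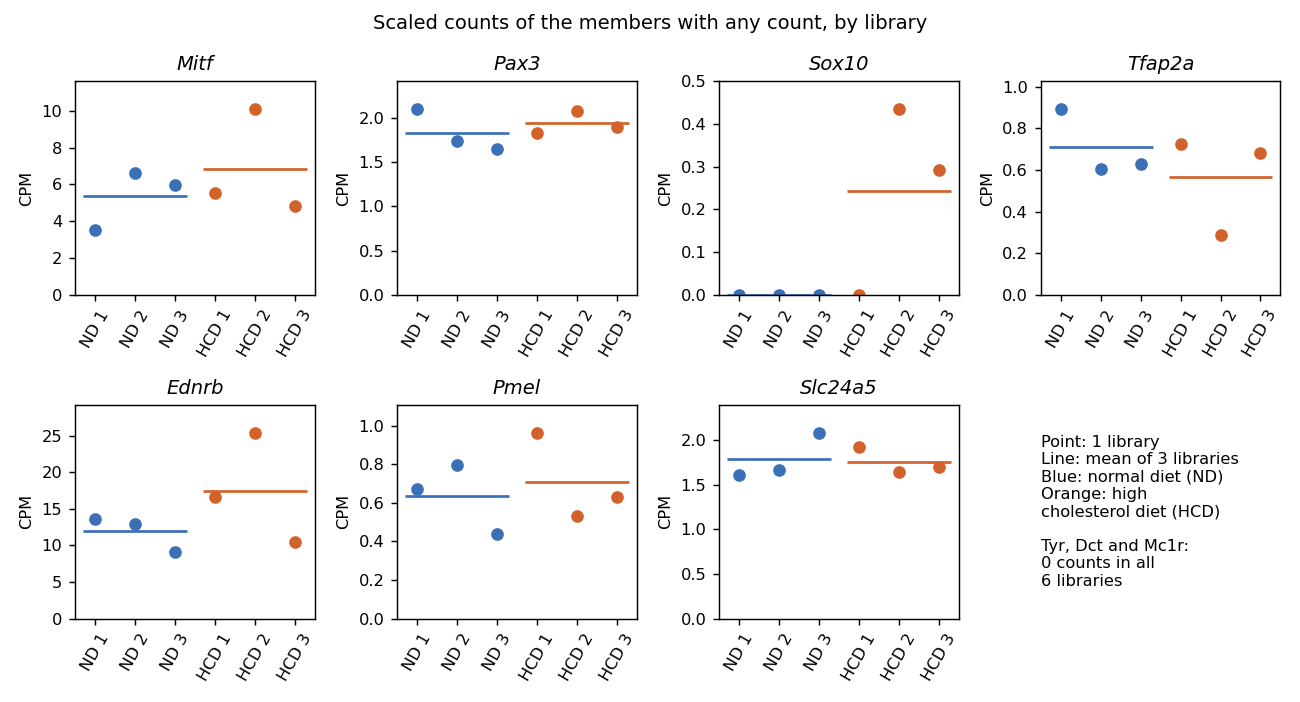
CPM of the 7 genes with any count in each library, ND in blue and HCD in orange, with the mean of each diet as a line. The diets overlap for every gene drawn, HCD 2 is the highest library for Mitf and Ednrb, and Sox10 is above 0 in HCD 2 and HCD 3.

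The comparison of the diets asked which of these transcripts differed between HCD and ND tumours. None of the 6 tested genes (Mitf, Pax3, Tfap2a, Ednrb, Pmel and Slc24a5, the ones that passed the filter on low counts) differed beyond the spread between tumours. By the edgeR quasi-likelihood test 0 of 6 passed an adjusted p of 0.05, as did 0% of all 15539 tested genes, and by the DESeq2 Wald test also 0 of 6, against 0.0515% of the genes it tested. At an unadjusted p under 0.05 there were 0 of 6, where 5.30% of all tested genes lay. Fold changes were positive for 4 of the 6 genes and negative for 2, with a median log2 fold change of 0.12 beside 0.01 over all tested genes. The diets overlapped for each of the 6. Among all tested genes, 4.75% had every HCD library above every ND library and 6.36% had every one below. The 95% intervals were wide: the narrowest, that of Pax3, ran from -0.48 to 0.64, and that of Tfap2a, with few counts, from -1.34 to 0.70, so sizeable differences in either direction were not detectable with 3 tumours a diet.

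**Figure D5:**
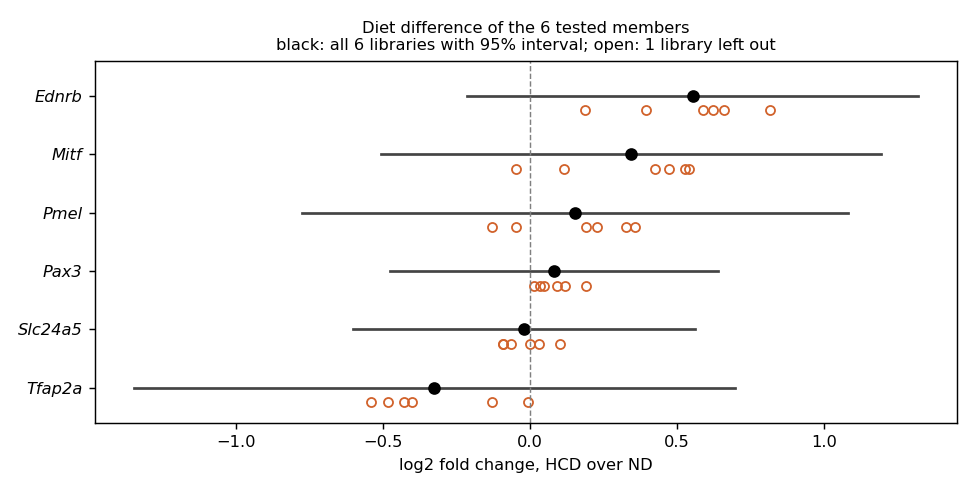
Log2 fold change of HCD over ND for the 6 tested genes with its 95% interval (black) and with each library left out in turn (open circles). Every interval crosses 0, and single libraries turn the sign for Mitf, Pmel and Slc24a5.

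Other genes of the pigment cell were taken from 7 lists with 80 genes. None of the 57 tested passed in either direction (edgeR smallest adjusted p = 0.839), 35 fold changes were positive and 22 negative, and their median log2 fold change was 0.06. At an unadjusted p under 0.05 there were 2 of 57, both lower in HCD tumours, beside 5.30% of all tested genes (282 higher and 541 lower), so this count is near the background. DESeq2 called 0.

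Among melanosome proteins, 5 of 12 were counted in all libraries. Gpnmb, a membrane glycoprotein that macrophages also make, had 12.0 ± 3.31 FPKM and Rab32, a small GTPase of melanosome and lysosome traffic, 8.13 ± 1.95 FPKM (SD, n = 6 each). Some genes more restricted to pigment cells had few counts. The totals were 8 for Slc45a2, a melanosomal transporter, 6 for Gpr143, a melanosomal receptor (0.0176 FPKM), and 28 for Rab38. Others were counted in every library, namely Trpm1 of the same list, Pmel (0.316 FPKM) and Slc24a5 (0.667 FPKM). The levels of Pmel and Slc24a5 are uncertain, since reads from neighbours with overlapping exons could not be told apart. All 4 genes of melanosome transport were counted in all libraries, led by Mlph (11.5 ± 1.67 FPKM), which links Rab27a to the motor myosin Va, and Myo5a, the gene of that motor (1.36 ± 0.527 FPKM).

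All 17 genes of lysosome-related organelle biogenesis, which many cell types use, were counted in all libraries. Bloc1s2, a BLOC-1 subunit, had 47.2 ± 3.34 FPKM and Ap3b1, an AP-3 adaptor subunit, 30.1 ± 1.23 FPKM. The relatives of Mitf that also bind E-boxes were all present, Tfe3 at 3.56 ± 0.152 FPKM, Tfeb at 2.04 ± 0.171 FPKM and Tfec at 0.942 ± 0.396 FPKM, against 0.603 FPKM for Mitf itself. Of 13 other neural crest regulators 8 were counted in all libraries. Sox9, a SoxE relative of Sox10 that liver progenitors, cartilage and other tissues use, stood at 33.8 ± 5.58 FPKM and Zeb2, a zinc finger repressor, at 1.44 ± 0.496 FPKM. Foxd3, an early neural crest factor, had 5 counts in total.

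Among 21 ligands, receptors and signalling genes, 13 were counted in all libraries and Mc2r, Mc3r and Mc4r, the relatives of Mc1r, had 0 counts throughout. Mc5r, the remaining one, had 2 counts. Kitl, which encodes the ligand of the receptor Kit, was the highest at 65.3 ± 3.41 FPKM, followed by the G protein gene Gnaq at 24.0 ± 1.44 FPKM. Kit itself had 0.828 ± 0.372 FPKM. The ligand of Ednrb in melanoblasts, Edn3, had 1 count in total, and Edn1, another endothelin, 0.893 ± 0.477 FPKM. The melanocortin precursor gene Pomc had 1 count and the gene of the antagonist of Mc1r, Asip, 2 counts. Of 10 genes that Mitf is known to activate outside pigment synthesis 9 were counted in all libraries, with Cdkn1a, a cell cycle inhibitor, at 45.0 ± 5.35 FPKM and Acp5, the tartrate-resistant acid phosphatase, at 32.4 ± 7.82 FPKM, while Birc7 had 0 counts.

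For Mitf, Ednrb, Pax3 and Slc24a5, the 4 genes averaging 1 CPM or more, the genes with the most similar course over the 6 libraries were looked up by Pearson's r of log2 CPM among 13658 tested genes. With only 6 points, high values arise for many genes, so these are descriptions. For Mitf they were Acp5 (r = 0.997), Slco2b1 (r = 0.997) and Lcp1, the leucocyte plastin gene (r = 0.996), and 759 genes had an r above 0.9. For Ednrb they were Slc35f1 (r = 0.988), Cxx1c (r = 0.982) and Zfp456 (r = 0.980), with 99 genes above 0.9. For Pax3 they were Sorbs3 (r = 0.984), Ube2a (r = 0.982) and Xrn1 (r = 0.970), with 23 genes above 0.9. For Slc24a5 they were Bola2 (r = 0.988), Prr3 (r = 0.987) and Slc16a11 (r = 0.983), with 50 above 0.9. Acp5 ran from 38.2 CPM in ND 1 to 73.1 CPM in HCD 2, the same lowest and highest libraries as Mitf.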

How the data were processed

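Raw read counts and FPKM values per gene (a count scaled by a fixed gene length and the library total) were deposited side by side by the authors for 34745 genes in 6 tumours. Per the submitters' processing notes, the tools were CASAVA 1.8, TopHat2 2.0.9, edgeR and HTSeq and the build was mm10. Their roles are not stated. The strand setting and annotation release are not given in the sources used here. Per the labels, libraries were made from total RNA with a TruSeq RNA kit.

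The diet came from the sample titles. Counts were tested with edgeR 4.0.16 in R 4.3.3 (quasi-likelihood F-test in its legacy form, diet as the only term, all 6 libraries, TMM factors from 0.979 to 1.02, default filter with minimum count 10 and minimum total 15; 15539 genes tested). The Benjamini-Hochberg adjustment ran over all tested genes, with a threshold of 0.05. CPM values use the TMM-scaled totals, and 3 counts in 1 library are 0.113 to 0.146 CPM. DESeq2 1.42.0 without independent filtering and limma 3.58.1 gave alternatives, as did other factors, filters, a replicate block, limma on log2(FPKM + 1) and each library left out. The edgeR script was tested on simulated data. GENCODE M21 gave positions and overlaps, RefSeq the promoters.

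The genes and lists were chosen with earlier results of these data known. Named were all 10 genes, the 2 list genes with the highest mean FPKM, those past the threshold or at 0, and the genes most alike in pattern. Other list genes were named after their values were seen. Asip was matched to the table's symbol for agouti.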

Additional observations from a re-analysis of the deposited data

How the results depend on the processing

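None of the 10 genes and none of the other pigment cell genes passed under any of the 17 alternatives in which they were tested, whose lowest adjusted p was 0.659 for the 10 genes and 0.578 (without ND 2) for the others. Over all genes, edgeR called 0 higher and 0 lower, while DESeq2 called 1 higher and 7 lower. With 1 library left out, edgeR called from 0 to 2 genes lower, the 2 without ND 2, and 0 higher. An added choice made after seeing the data, edgeR with adjusted deviances, called 0. The cause of these differences was not tested. Signs turned with 1 library left out for Mitf (-0.047 without HCD 2, range to 0.54), Pmel (-0.047 without ND 3 and -0.13 without HCD 1, range to 0.36) and Slc24a5 (0.10 without ND 3 and 0.031 without HCD 2, range from -0.093), on the log2 scale. Ednrb ranged from 0.19 to 0.82, Pax3 from 0.013 to 0.19 and Tfap2a from -0.54 to -0.0077 with 1 library left out. Of the 6 genes counted in all libraries, 4 had at least 10 counts in each.

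Deviations from the diet means correlated at -0.24, 0.11 and 0.07 between the diets for tumour numbers 1, 2 and 3. With no reference for unpaired tumours, these values cannot decide whether equal numbers mark a pair. With the number as a replicate block, 0 of the 6 genes tested among the 10 and 0 of all tested genes were called in either direction. Counts of 6 to 21 a library limit Tfap2a and Pmel, and no alternative gives a test for the genes at 0.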

Other observations

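Among the other pigment cell genes, 2 of the 57 tested had an unadjusted p under 0.05, beside 5.30% of all tested genes, and are named because of their values. Trpm1, a cation channel gene of melanocytes and retina, had 1.34, 1.51 and 2.33 CPM in ND 1 to ND 3 and 0.723, 0.628 and 0.731 CPM in HCD 1 to HCD 3. All HCD libraries lay below all ND libraries, which was so for 6.36% of tested genes. The log2 fold change was -1.31 ± 0.32 SE (edgeR adjusted p = 0.839). Nrg1, which encodes a ligand of the ErbB receptors, had 33.1, 31.0 and 26.0 CPM in ND and 21.9, 21.8 and 24.7 CPM in HCD tumours, also without overlap. The log2 fold change of Nrg1 was -0.40 ± 0.12 SE (edgeR adjusted p = 0.839). Its exons overlap those of Gm26578 by 482 bases on the other strand, and Gm26578 had 1803 counts in total. Reads from that overlap could not be told apart, as the strand setting is not given.

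In HCD 3, a pair of keratin genes of the keratinocyte list stood apart, chosen after their values were seen. Krt14, a keratin of basal epidermis, had 13.4 CPM there against 0.0964 to 1.40 CPM in the other libraries, and Krt5, its partner, 11.8 CPM against 1.31 to 3.59 CPM. Of the rest of the list, Krt1, Krt15 and Dsg3 were also highest in HCD 3 at low counts, and Krt10, Trp63 and Ivl were not. Krt10 had 3.12 CPM in HCD 3 against 3.35 CPM in ND 3, and Ivl had 0.0974 CPM against 0.582 CPM.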
